A study of Homo sapiens with 6 samples.

Results

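A group of 10 human genes was examined that serve the ferroptosis defences running beside the glutathione system: the coenzyme Q (CoQ) and vitamin K branch and the tetrahydrobiopterin (BH4) branch. The 10 genes were chosen by symbol from their known roles and are AIFM2, DHODH, GCH1, PTS, SPR, QDPR, COQ2, PDSS1, PDSS2 and VKORC1L1. They make up 10 of the 37923 genes in the count table, and all 10 were among the 18581 genes that passed the filter on low counts and were tested. RNA had been sequenced from 3 libraries of a group named ENZ and 3 of a group named Control, all labelled RKO, a human colorectal carcinoma cell line. The series design gives the ENZ group as cells given an LSD1 degrader called compound A3, with RNA taken after 48 h. LSD1 is a histone demethylase. No source used here states what the Control cells received or what the letters ENZ mean. The design calls the 3 samples of a group biological replicates but does not say whether they were separate cultures, so the p-values describe the spread among these samples, which may be technical. The question was how far the transcripts of these 10 genes, and of the steps around them, moved in the ENZ libraries relative to Control.

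The libraries held 26756840 to 30025543 counts in ENZ and 26691289 to 28207612 in Control. The cell line label was checked against lists of lineage genes. Of 7 colorectal epithelial markers analysed, 5 had a mean under 1 CPM (counts scaled to library size), with CDX1 at 0.0374 CPM or less and KRT20 at 0.0368 CPM or less. VIL1, at a mean of 57.8 CPM in ENZ and 39.9 CPM in Control, was the marker over 10 CPM. Of 12 prostate luminal markers, 9 had a mean over 10 CPM, and their summed level was 3259 to 3290 CPM in ENZ and 3037 to 3105 CPM in Control. These levels go against the label, so the samples are called the libraries labelled RKO. All 5 leukocyte markers and all 3 endothelial markers analysed had a mean under 1 CPM. Among 5 fibroblast markers 2 were over 10 CPM, with a summed level of 39.9 to 42.8 CPM in ENZ and 77.4 to 86.6 CPM in Control. The sum followed LUM, at a mean of 29.15 CPM in ENZ and 67.41 CPM in Control, while COL1A1 was at 12.13 and 11.45 CPM. DCN was at 0.34 and 2.21 CPM, PDGFRB at 0.07 and 0.26 CPM and COL1A2 at 0.01 and 0 CPM. The part that these differences play in the results below was not tested. In bulk RNA, fewer cells of a kind and less RNA per cell cannot be told apart.

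Ferroptosis is a death by peroxidation of membrane lipids, and it is held back by molecules that trap lipid radicals. CoQ in its reduced form (ubiquinol) and the reduced form of vitamin K are such molecules in membranes, and AIFM2, which encodes FSP1, DHODH and VKORC1L1 keep quinones reduced. CoQ itself is built in mitochondria from a polyprenyl side chain, made by PDSS1 and PDSS2, that COQ2 joins to a ring. BH4 is another radical trap and an enzyme cofactor; GCH1, PTS and SPR make it from GTP in that order, and QDPR regenerates it after use.

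Of the 10 genes, 5 were called at an adjusted p under 0.05 in the quasi-likelihood F test of edgeR, with Benjamini-Hochberg adjustment over all 18581 genes, 3 of them higher and 2 lower in ENZ. Over all genes tested, 39.8% were called, 20.5% higher and 19.3% lower, so the share of these genes that was called is near the background. The count changed with single libraries, with 1 member called without Control replicate 3, 2 without ENZ replicate 2 and 3 without ENZ replicate 3. Calls over all genes also fell in these fits, to 5876 of 19048, 5945 of 19138 and 6392 of 18986 genes tested, beside 7393 of 18581 in the first fit. Scaled on library totals alone, 5 members were called, 2 higher and 3 lower, with PDSS1 in place of QDPR. Over all genes 3097 were then called higher and 4104 lower, beside 3814 and 3579 in the first fit. That fit also used a size factor per library (TMM), 0.982 to 0.995 in ENZ and 1.008 to 1.016 in Control. Its fold changes and percentages therefore lie slightly above ratios of levels scaled on library totals, such as CPM and FPKM. The changes were small. No member passed an absolute log2 fold change of 1, a limit named in the series design that 2.98% of all genes tested passed together with a call, and the median absolute log2 fold change was 0.14 for the 10 genes and 0.20 for all genes tested. The values of the groups did not overlap, on FPKM, for 7 of the 10 genes, beside 49.2% of all genes tested. FPKM scales a count to gene length and to library size, so it is a level per length and allows genes to be compared with each other.

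Fold changes over all genes followed the base composition of the transcript, which touches every value below. Genes whose transcripts held under 45% GC had a median log2 fold change of −0.12, those between 45% and 55% had 0.03, and those over 55% had 0.11. GCH1, PTS, PDSS1, PDSS2 and VKORC1L1 lie under 45%, QDPR, COQ2 and DHODH between these limits, and SPR and AIFM2 above them. A second fit with offsets for GC content and gene length is therefore given beside the first for members and list counts, and for other named genes where a call or a sign differs. With the offsets the medians, in the same order of GC content, were 0.005, −0.01 and −0.0445, so the genes over 55% then sat lowest. The offsets also hold gene length, whose own trend over all genes was not tested. In that fit 41.7% of all genes tested were called, and of the 10 genes SPR, QDPR and PDSS2 were called higher and DHODH lower.

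Levels of the 10 genes spanned a wide range. SPR had the highest level per length, 46.3 ± 2.62 FPKM in ENZ and 40.6 ± 2.91 FPKM in Control (SD, n = 3 each), above 94.5% of all genes tested. VKORC1L1 and GCH1 followed at 21.4 to 25.3 FPKM, and they changed places between the groups. In ENZ the libraries of VKORC1L1 (21.4 to 23.1 FPKM) and GCH1 (21.8 to 22.3 FPKM) overlapped, while in Control every GCH1 value (24.2 to 25.3 FPKM) was above every VKORC1L1 value (22.2 to 23.1 FPKM). PDSS1, COQ2, PDSS2, PTS, DHODH and QDPR came next in that order in both groups, each apart from its neighbour in all libraries of a group. The order holds for the gene lengths behind FPKM, and it was not tested with transcript lengths. QDPR, at 3.61 ± 0.063 FPKM in ENZ and 3.13 ± 0.175 FPKM in Control, was near the median of all genes tested, 3.23 FPKM. AIFM2 stood far below the others at 0.308 ± 0.014 FPKM in ENZ and 0.302 ± 0.055 FPKM in Control, above only 12.2% of all genes tested.

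**Figure D1:**
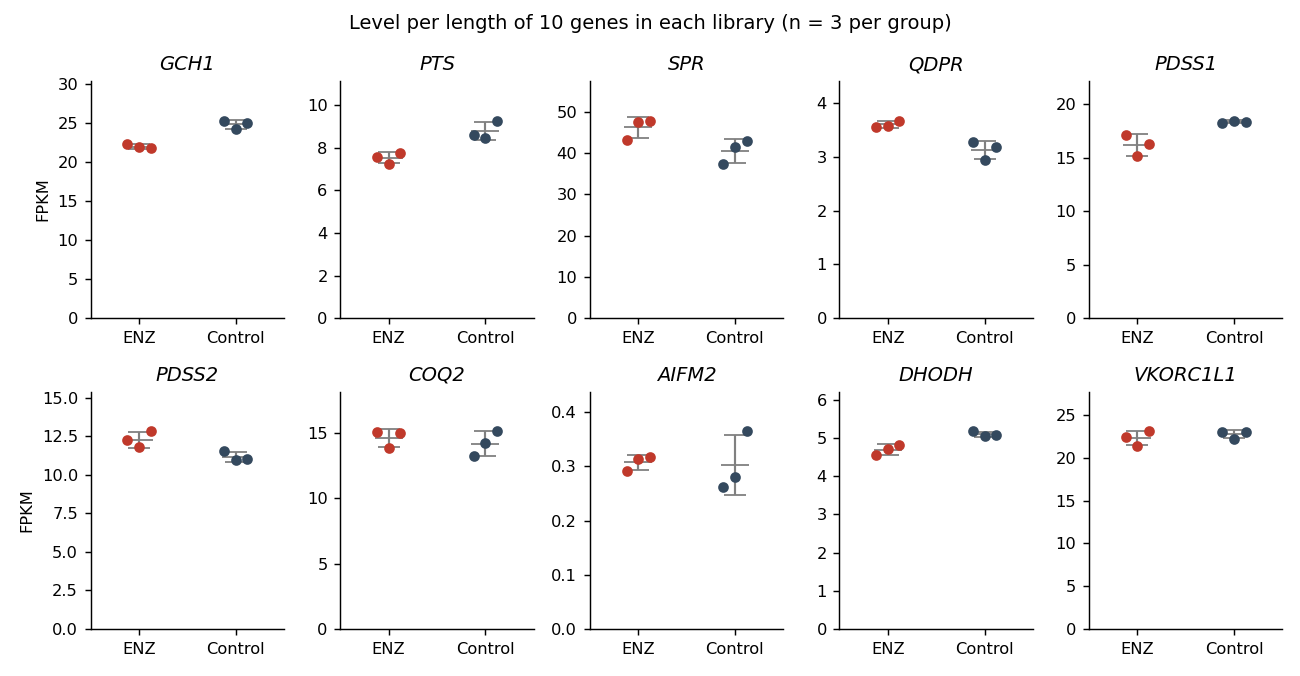
Level per length (FPKM, linear axis from 0) of the 10 genes in each library, with ENZ left of Control; points are libraries and bars the mean ± SD of 3 libraries. GCH1, PTS, PDSS1 and DHODH sit lower in all ENZ libraries, SPR, QDPR and PDSS2 sit higher, and AIFM2 stays under 0.4 FPKM in every library. PDSS1 and DHODH were not called in the first fit.

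In the first fit the 4 BH4 genes divided by step. Transcripts of the opening steps fell in ENZ, and those of the last step and of recycling rose. With GC and length offsets SPR and QDPR kept their calls, while GCH1 and PTS lost theirs. GCH1, GTP cyclohydrolase, is the rate-limiting entry step of the pathway (ENSG00000131979; chromosome 14, 54842008 to 54902826, GRCh38). Its level was 22.3, 21.8 and 21.8 FPKM in ENZ and 25.3, 24.2 and 25.0 FPKM in Control. All ENZ libraries lay under all Control libraries, and the gene fell by 9.41% (log2 fold change −0.14 ± 0.04 SE; edgeR adjusted p = 0.0147). Under offsets for GC and length the call was lost (log2 fold change −0.06; adjusted p = 0.214), as it was without Control replicate 1, Control replicate 3 or ENZ replicate 2, with edgeR adjusted p-values of 0.0766, 0.0626 and 0.0657.

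PTS, which encodes the enzyme of the second step, 6-pyruvoyltetrahydropterin synthase, lies on chromosome 11 (ENSG00000150787; 112226367 to 112269955, GRCh38). It had 7.59, 7.26 and 7.75 FPKM in ENZ and 8.62, 8.47 and 9.28 FPKM in Control. Here too every ENZ library was lower than every Control library, and PTS fell by 12.1% (log2 fold change −0.19 ± 0.06 SE; edgeR adjusted p = 0.023). The call ended with offsets (−0.08; adjusted p = 0.297), in DESeq2 (adjusted p = 0.0839), and in edgeR without Control replicate 3 (adjusted p = 0.139) or ENZ replicate 2 (adjusted p = 0.112).

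SPR, sepiapterin reductase, carries out the final reduction to BH4 (ENSG00000116096; chromosome 2, 72887382 to 72892158, GRCh38). Its level was 43.2, 47.7 and 47.9 FPKM in ENZ and 37.4, 41.4 and 43.0 FPKM in Control. The lowest ENZ library stood just above the highest Control library. SPR rose by 16.7% (log2 fold change 0.22 ± 0.06 SE; edgeR adjusted p = 0.00428), and it was called in each of the 6 fits that leave out a library and with GC and length offsets (0.15; adjusted p = 0.00937). The setting that ended this call was limma on unfiltered log2(FPKM + 1) values (0.18; adjusted p = 0.16).

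QDPR, quinoid dihydropteridine reductase, returns the oxidised cofactor to BH4 (ENSG00000151552; chromosome 4, 17460261 to 17512206, GRCh38). It had 3.56, 3.58 and 3.68 FPKM in ENZ and 3.27, 2.94 and 3.19 FPKM in Control, from 291 to 328 counts in ENZ libraries and 242 to 280 in Control libraries. The groups did not overlap, and QDPR rose by 18% (log2 fold change 0.24 ± 0.09 SE; edgeR adjusted p = 0.0319). Of the 5 calls this one was lost most often, in 8 of 18 alternatives. It ended in DESeq2 (adjusted p = 0.112), with library totals alone (0.0671), with no filter on counts (0.0535), on unfiltered log2(FPKM + 1) values (0.0942) and in edgeR without Control replicate 2 (0.116), Control replicate 3 (0.0623), ENZ replicate 2 (0.0709) or ENZ replicate 3 (0.0841), and it was kept with GC and length offsets (0.27; adjusted p = 0.0115).

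The regions before the start sites of PTS and SPR are shown because these steps of one route were called in opposite directions in the first fit. With GC and length offsets the SPR call stayed and the PTS call was lost (edgeR adjusted p = 0.00937 and 0.297). Each line gives the 250 bases before the RefSeq start (GRCh38.p14), which can differ from the gene limits above, 5′ to 3′ on the gene's own strand, at chr11:112226178-112226427 (plus strand) for PTS and chr2:72887158-72887407 (plus strand) for SPR. Capitals mark GC boxes, GGGCGG on either strand.
PTS: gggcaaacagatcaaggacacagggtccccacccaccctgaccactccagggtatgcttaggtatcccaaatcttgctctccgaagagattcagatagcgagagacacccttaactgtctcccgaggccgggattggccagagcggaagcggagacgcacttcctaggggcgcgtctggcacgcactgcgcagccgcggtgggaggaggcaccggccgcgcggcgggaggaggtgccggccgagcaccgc
SPR: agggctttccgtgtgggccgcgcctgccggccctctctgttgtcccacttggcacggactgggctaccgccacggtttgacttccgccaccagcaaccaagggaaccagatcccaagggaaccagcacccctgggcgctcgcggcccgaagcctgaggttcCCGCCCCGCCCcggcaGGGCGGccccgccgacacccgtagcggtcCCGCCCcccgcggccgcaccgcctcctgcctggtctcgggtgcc
The SPR window held 4 GC boxes and the PTS window 0, and 42.6% of the 35116 windows in the RefSeq table held at least 1. The PTS window held 1 CCAAT box (CCAAT on either strand, in 32% of windows). GC content was 65.2% for PTS, with 21 CpG, and 73.6% for SPR, with 26 CpG. A match of letters is not a measured binding site.

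Other genes that recycle, salvage or regulate BH4 also moved both ways. Of 7 tested, 2 rose and 1 fell, a share of 42.9% beside 39.8% of all genes tested, with a median log2 fold change of 0.12 beside −0.01. With GC and length offsets 4 rose and 1 fell, 71.4% beside 41.7%, with a median of 0.16 beside −0.01. AKR1C3 and CBR1, reductases that can stand in for SPR on BH4 precursors, rose. AKR1C3 had 12.7, 12.5 and 11.6 CPM in ENZ and 6.49, 7.54 and 8.24 CPM in Control (log2 fold change 0.76 ± 0.10 SE; edgeR adjusted p = 1.86e-06). CBR1 had 39.8 ± 2.41 CPM in ENZ and 34.7 ± 0.83 CPM in Control, a log2 fold change of 0.23 (edgeR adjusted p = 0.0031). AKR1C3 has close paralogs, and no source used here says how shared reads were counted. GCHFR, the feedback regulator that binds GTP cyclohydrolase, was at 24 to 38 counts in ENZ libraries and 30 to 39 in Control libraries (log2 fold change −0.17, 95% interval −0.66 to 0.33), and PCBD1, the dehydratase that acts before QDPR, had a log2 fold change of −0.01 (interval −0.12 to 0.09).

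Few users of the cofactor were expressed. Of 8 BH4-dependent enzymes 2 passed the filter on low counts. TPH1, tryptophan hydroxylase, fell by 0.88 on the log2 scale, with 43 to 71 counts in ENZ libraries and 100 to 108 in Control libraries (edgeR adjusted p = 1.42e-04). NOS3, endothelial nitric oxide synthase, which was named after its values were seen, had 50.7 ± 1.72 CPM in ENZ and 49.7 ± 1.1 CPM in Control, a log2 fold change of 0.06 (edgeR adjusted p = 0.337). With GC and length offsets NOS3 turned to a called fall of −0.15 (adjusted p = 0.00674).

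Of the subunits that make the CoQ side chain, PDSS2 rose, while PDSS1 had lower values in ENZ that missed the threshold. PDSS1 and PDSS2 together form decaprenyl diphosphate synthase, which lengthens the isoprenoid tail of CoQ. PDSS2 (ENSG00000164494; chromosome 6, 107152562 to 107459564, GRCh38) had 12.2, 11.8 and 12.8 FPKM in ENZ and 11.53, 10.97 and 11 FPKM in Control. Its ENZ libraries were all higher, and PDSS2 rose by 12.6% (log2 fold change 0.17 ± 0.05 SE; edgeR adjusted p = 0.0127). With offsets the log2 fold change was 0.23 (adjusted p = 2.15e-04), while without Control replicate 3 or ENZ replicate 3 the adjusted p was 0.0528 and 0.0606, and 0.126 on unfiltered log2(FPKM + 1) values.

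PDSS1 (ENSG00000148459; chromosome 10, 26697701 to 26746798, GRCh38) had 17.2, 15.2 and 16.3 FPKM in ENZ and 18.3, 18.5 and 18.4 FPKM in Control. The groups did not overlap, yet the difference missed the threshold (log2 fold change −0.14 ± 0.06 SE, 95% interval −0.27 to −0.02; edgeR adjusted p = 0.0559). It was called in 4 of 18 alternatives. In edgeR these were the fit without ENZ replicate 1 (−0.18, adjusted p = 0.0157) and library totals alone (−0.18, adjusted p = 0.0209). The others were limma on filtered log2(FPKM + 1) and log2(FPKM + 0.1) values (adjusted p = 0.022 and 0.0224). Its value under GC and length offsets was −0.04 (adjusted p = 0.575). Of the exon bases of PDSS1, 10.8% are shared with ABI1 on the other strand, which had a log2 fold change of 0.02 (edgeR adjusted p = 0.796).

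The start regions of the PDSS pair are shown because 2 subunits of 1 enzyme differed in the sign of their fold change. GC boxes are in capitals, and the windows lie, at chr10:26697451-26697700 (plus strand) and chr6:107459565-107459814 (minus strand), GRCh38.p14, 5′ to 3′ on the gene's strand.
PDSS1: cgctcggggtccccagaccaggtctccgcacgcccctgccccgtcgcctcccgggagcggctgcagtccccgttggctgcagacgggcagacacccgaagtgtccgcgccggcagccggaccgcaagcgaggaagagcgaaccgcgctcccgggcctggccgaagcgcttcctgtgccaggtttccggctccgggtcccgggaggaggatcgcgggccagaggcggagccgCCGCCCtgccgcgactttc
PDSS2: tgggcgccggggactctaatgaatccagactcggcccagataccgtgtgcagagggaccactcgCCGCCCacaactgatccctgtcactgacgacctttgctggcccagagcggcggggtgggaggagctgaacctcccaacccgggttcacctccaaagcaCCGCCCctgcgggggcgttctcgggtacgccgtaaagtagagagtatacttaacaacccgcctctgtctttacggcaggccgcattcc
The PDSS1 window held 1 GC box and the PDSS2 window 2. In GC content the windows stood at 74.8% for PDSS1 and 62.4% for PDSS2, while the transcripts of the pair were near alike, 43.8% and 43.2%. Of the 9 members with a window in the RefSeq table, 8 held a GC box.

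COQ2, which attaches the side chain to the ring precursor in the inner mitochondrial membrane (ENSG00000173085; chromosome 4, 83261536 to 83284914, GRCh38), had 15.0, 13.8 and 15.0 FPKM in ENZ and 13.2, 14.2 and 15.1 FPKM in Control. The groups overlapped, and the log2 fold change was 0.08 (95% interval −0.04 to 0.20, edgeR adjusted p = 0.306). With GC and length offsets it was 0.07 (adjusted p = 0.274).

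Ratios of 2 genes within a library do not depend on how libraries are scaled. These 4 ratios were chosen after the values were seen. The first 3 each set a member with a positive fold change over one with a negative fold change, so they restate those values and are given without a test. PDSS2 per PDSS1, on FPKM, was 0.712, 0.776 and 0.785 in ENZ and 0.631, 0.594 and 0.598 in Control. SPR per GCH1 was 1.94, 2.18 and 2.20 in ENZ and 1.48, 1.71 and 1.72 in Control. QDPR per PTS was 0.479 ± 0.013 in ENZ and 0.356 ± 0.020 in Control (SD, n = 3 each). In these 3 ratios every ENZ library was above every Control library. The log2 differences, ENZ minus Control, were 0.32 for PDSS2 per PDSS1, 0.37 for SPR per GCH1 and 0.43 for QDPR per PTS. From fold changes fitted with GC and length offsets they were 0.27, 0.21 and 0.34, with the largest drop in SPR per GCH1, whose transcripts hold 59% and 43% GC. VKORC1L1 per VKORC1 was 6.56 ± 0.95 in ENZ and 7.35 ± 0.11 in Control, and the groups overlapped.

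**Figure D2:**
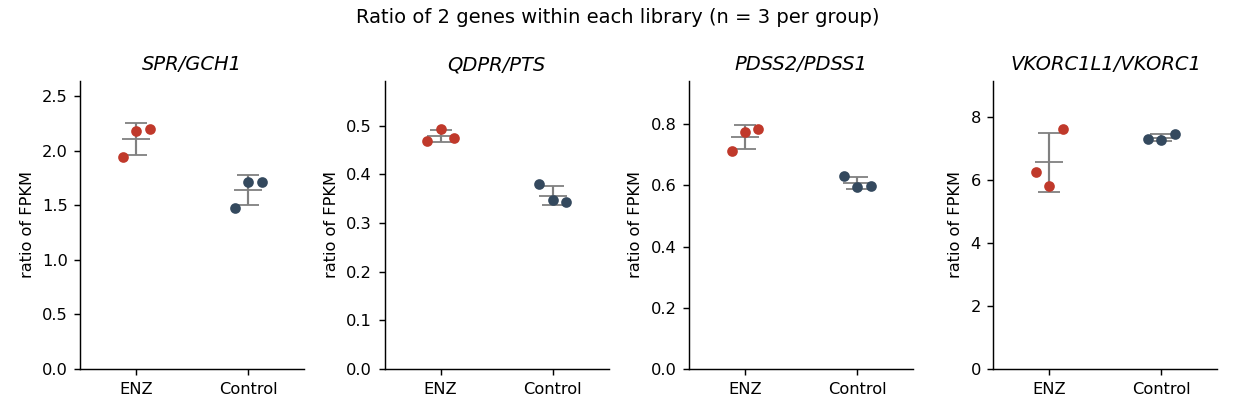
Ratio of FPKM values of 2 genes within each library (linear axis from 0), with ENZ left of Control; points are libraries and bars the mean ± SD of 3 libraries. SPR/GCH1, QDPR/PTS and PDSS2/PDSS1 are higher in all ENZ libraries, and VKORC1L1/VKORC1 overlaps between the groups.

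Around these members, the genes that finish, regulate and move CoQ had 4 rises and 0 falls among 13 tested, a share of 30.8% beside 39.8% of all genes tested, with a median log2 fold change of 0.01 beside −0.01. With GC and length offsets there were 4 rises and 3 falls, 53.8% beside 41.7%, with a median of −0.04 beside −0.01. The falls called with offsets were COQ4, a scaffold of the CoQ complex (−0.13; adjusted p = 0.00856), COQ8B, an atypical kinase (−0.15; adjusted p = 0.018), and FDXR, ferredoxin reductase (−0.13; adjusted p = 0.0343), named after their values were seen. COQ5, the ring methyltransferase, had 57.5, 61.0 and 61.3 CPM in ENZ and 50.9, 49.7 and 50.4 CPM in Control (log2 fold change 0.29 ± 0.05 SE; edgeR adjusted p = 8.44e-05). COQ6, a ring hydroxylase, rose by 0.27 to 26.3 ± 0.34 CPM in ENZ, against 22.4 ± 0.30 CPM in Control (edgeR adjusted p = 0.00145). Both were called in all 18 settings tried. COQ9, a lipid-binding partner of the hydroxylase COQ7, rose by 0.14 (edgeR adjusted p = 0.0127), which ended without Control replicate 1 (adjusted p = 0.053) or ENZ replicate 2 (adjusted p = 0.0556). COQ10B, a CoQ-binding protein gene, rose by 0.13 (edgeR adjusted p = 0.0349), a call that held in 9 of 18 settings and ended without Control replicate 1, 2 or 3 or ENZ replicate 1, with adjusted p-values from 0.0529 to 0.116. With offsets the COQ10B value was 0.32 (adjusted p = 8.04e-08). COQ3, the other ring methyltransferase, had a log2 fold change of −0.12 (interval −0.25 to 0.02; edgeR adjusted p = 0.158), and its sign turned with offsets (0.04; adjusted p = 0.633).

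Upstream, the mevalonate route supplies the isoprenoid units. Of 9 genes tested, 3 rose and 0 fell, a share of 33.3% beside 39.8% of all genes, with a median log2 fold change of 0.05 beside −0.01. Under the offsets 5 rose and 1 fell, 66.7% beside 41.7%, with a median of 0.11 beside −0.01, and the genes called differed. FDPS, farnesyl diphosphate synthase, had 175, 184 and 185 CPM in ENZ and 165, 165 and 164 CPM in Control, and rose by 0.17 (edgeR adjusted p = 0.00121). PMVK and MVD rose by 0.16 and 0.15 (edgeR adjusted p = 0.012 and 0.0105). With GC and length offsets, FDPS was no longer called (0.05; adjusted p = 0.153) and MVD was at −0.07 (adjusted p = 0.106). ACAT2, HMGCS1, IDI1 and GGPS1, which were not called before, joined PMVK as rises, with log2 fold changes of 0.20, 0.16, 0.11 and 0.17 and adjusted p-values of 1.81e-04, 1.35e-05, 0.00295 and 0.0194. MVK, mevalonate kinase, was the fall (−0.25; adjusted p = 1.44e-05). These 5 genes were named after their values were seen. The PMVK call ended without Control replicate 1 (adjusted p = 0.115) or ENZ replicate 3 (0.0532), and the MVD call without Control replicate 3 (0.0831) or ENZ replicate 2 (0.061).

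AIFM2, the gene of FSP1, was barely expressed. FSP1 is a myristoylated reductase that regenerates ubiquinol and reduced vitamin K at membranes. The libraries held 45, 43 and 48 AIFM2 counts in ENZ and 38, 39 and 50 in Control, 1.58 ± 0.07 CPM and 1.55 ± 0.28 CPM. The groups overlapped, and the log2 fold change of 0.06 had a 95% interval of −0.36 to 0.48, the widest of the 10 genes (edgeR adjusted p = 0.839). With offsets its sign turned, to −0.07. AIFM2 (ENSG00000042286; chromosome 10, 70098223 to 70132934, GRCh38) overlaps MACROH2A2 on the other strand, with 986 of its 5135 exon bases (19.2%) shared. The kit did not mark strand, so reads of the genes there cannot be told apart by strand, and MACROH2A2 had 990, 941 and 1122 counts in ENZ and 852, 906 and 873 in Control, a log2 fold change of 0.18 (edgeR adjusted p = 0.032). The part of this overlap in the AIFM2 counts was not tested.

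The AIFM2 start region is shown because the gene is known as a target of the antioxidant factor NRF2 (NFE2L2). The 250 bases before the RefSeq start lie at chr10:70132826-70133075 on the minus strand (GRCh38.p14). Capitals mark the core of an antioxidant response element, TGACNNNGC on either strand.
AIFM2: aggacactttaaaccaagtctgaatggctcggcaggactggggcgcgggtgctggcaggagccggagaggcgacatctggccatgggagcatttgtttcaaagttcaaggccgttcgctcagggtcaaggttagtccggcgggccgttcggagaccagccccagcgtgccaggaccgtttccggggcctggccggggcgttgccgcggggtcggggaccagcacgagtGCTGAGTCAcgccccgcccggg
The match begins 22 bases before the start and overlaps an AP-1 motif (TGACTCA, either strand), and 10.9% of the 35116 windows held such a core. Among the members VKORC1L1 was the other gene with one. A match in the reference does not show that a factor binds there.

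DHODH reduces CoQ in the inner mitochondrial membrane while it oxidises dihydroorotate, the fourth step of pyrimidine synthesis (ENSG00000102967; chromosome 16, 72008588 to 72027664, GRCh38). Its level was 4.55, 4.71 and 4.83 FPKM in ENZ and 5.18, 5.06 and 5.07 FPKM in Control. The groups did not overlap, but the log2 fold change of −0.08 was not called (95% interval −0.20 to 0.03; edgeR adjusted p = 0.246). With GC and length offsets it was −0.20 and was called (adjusted p = 0.00169). The parts of GC content and of length in this change were not tested. The flanking enzymes CAD and UMPS, the other genes of the route, had log2 fold changes of −0.05 each (edgeR adjusted p = 0.397 and 0.502). CAD was also called with offsets (−0.21; adjusted p = 6.77e-06), and UMPS was not (−0.10; adjusted p = 0.0717).

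VKORC1L1, which reduces vitamin K and its epoxide, differed least of the 10 between the groups (ENSG00000196715; chromosome 7, 65873074 to 65959563, GRCh38). It had 22.4, 21.4 and 23.1 FPKM in ENZ and 23.1, 22.2 and 23.0 FPKM in Control. The groups overlapped, and the log2 fold change of 0.01 had a 95% interval of −0.08 to 0.09, the narrowest of the 10 (edgeR adjusted p = 0.917). The fold change was 0.03 with GC and length offsets (adjusted p = 0.463), and its sign turned to −0.03 on library totals alone. Its paralog VKORC1, the target of warfarin, stood lower, at 3.44 ± 0.35 FPKM in ENZ and 3.10 ± 0.05 FPKM in Control (log2 fold change 0.18; edgeR adjusted p = 0.173).

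**Figure D3:**
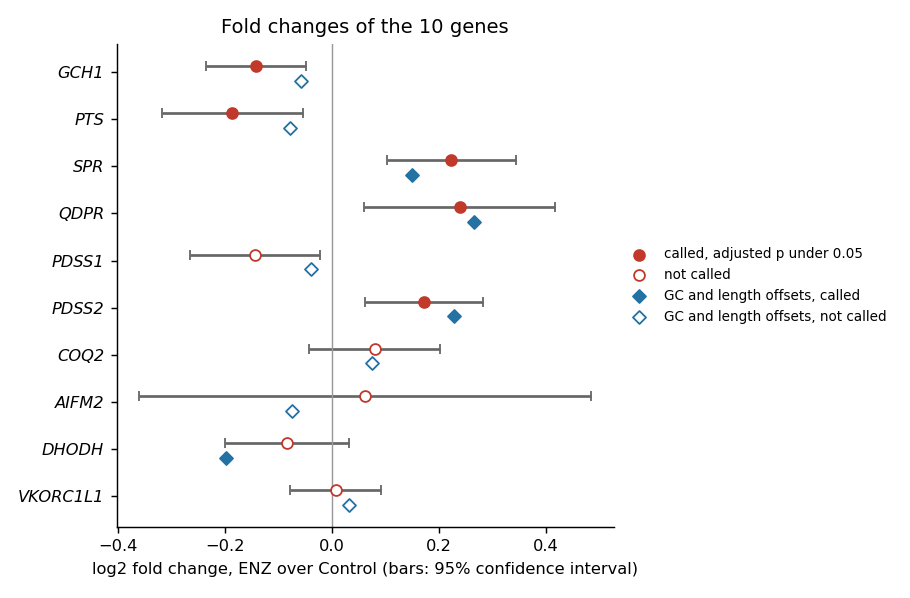
Log2 fold change of ENZ over Control for the 10 genes; red circles are the edgeR fit with 95% confidence intervals, blue diamonds the fit with GC and length offsets, and filled symbols passed an adjusted p of 0.05. SPR, QDPR and PDSS2 are filled and above 0 in both fits, GCH1 and PTS move toward 0 with offsets, and DHODH moves from −0.08 to −0.20.

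In the list of vitamin K enzymes and quinone reductases 1 of 5 tested genes rose (20.0% beside 39.8% of all genes, the same count with offsets; median log2 fold change 0.15 beside −0.01, and 0.08 with offsets), NQO1, a soluble quinone reductase that uses NAD(P)H. NQO1 had 58.9, 62.1 and 63.5 CPM in ENZ and 39.9, 42.2 and 40.6 CPM in Control (log2 fold change 0.62 ± 0.05 SE; edgeR adjusted p = 4.2e-09). Among mitochondrial dehydrogenases that pass electrons to CoQ, 4 of 8 tested rose and 2 fell, a share of 75.0% called beside 39.8% of all genes, with a median log2 fold change of 0.09 beside −0.01. With offsets 5 rose and 0 fell, 62.5% beside 41.7%, with a median of 0.18 beside −0.01. SQOR, which oxidises hydrogen sulphide, was low and rose by 0.51, with 4.46, 4.75 and 5.78 CPM in ENZ and 3.37, 3.72 and 3.67 CPM in Control (edgeR adjusted p = 0.00407). CHDH, choline dehydrogenase, rose by 0.30 to 68.4 ± 0.39 CPM in ENZ, against 56.9 ± 2.30 CPM in Control (edgeR adjusted p = 3.16e-05). SDHC, a membrane anchor of complex II, rose by 0.25 (edgeR adjusted p = 3.99e-05). ETFDH, which takes electrons from fatty acid oxidation, fell by 0.18 (edgeR adjusted p = 0.00478), with adjusted p-values of 0.0726 under GC and length offsets and 0.0669 without ENZ replicate 2. NMT1, the main N-myristoyltransferase, an enzyme type that FSP1 needs to reach membranes, rose by 0.15 (edgeR adjusted p = 0.00649), and with offsets was at 0.03 (adjusted p = 0.533). NMT2, its paralog, named after its values were seen, was not called (log2 fold change −0.03). Over all 8 lists 15 of 48 tested genes rose and 4 fell, 39.6% called, beside the 39.8% of all genes tested. In the fit with offsets 19 rose and 8 fell, 56.2% beside 41.7%, so which list genes were called depended on the correction.

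**Figure D4:**
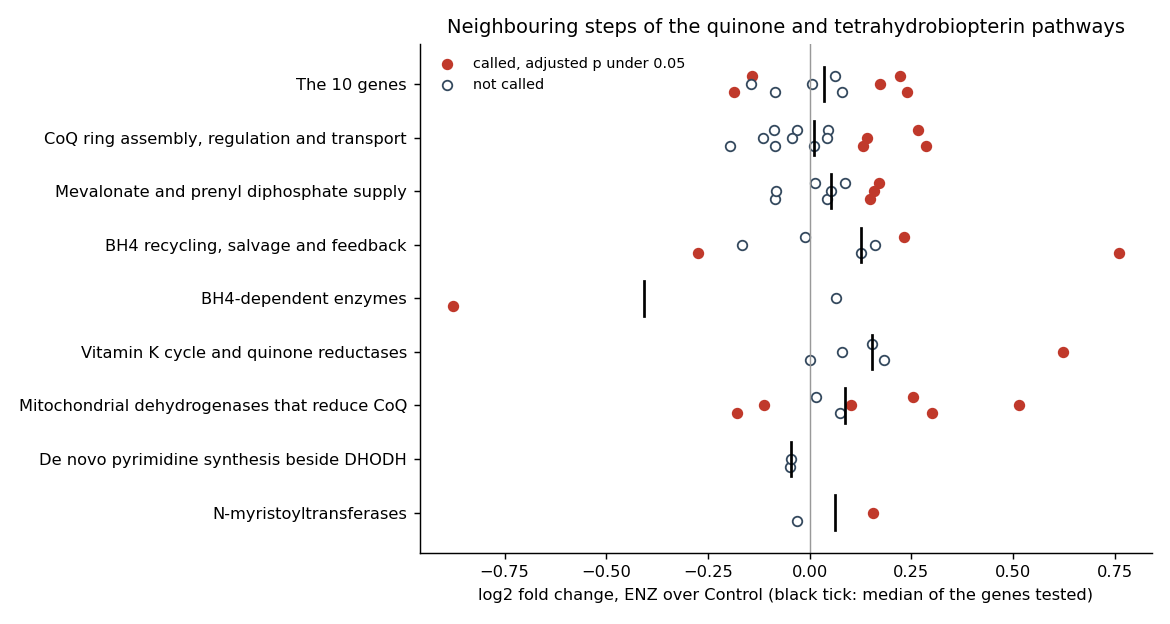
Log2 fold change of ENZ over Control for the 10 genes and for each tested gene of 8 neighbouring lists; filled red points passed an adjusted p of 0.05, open points did not, and black ticks are medians. Most points lie within 0.3 of 0, with AKR1C3, NQO1 and SQOR to the right and TPH1 to the left.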

How the data were processed

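The files the authors deposited hold whole-number counts and, separately, FPKM values of every gene for 6 libraries. Per the labels' protocols, poly(A) RNA was made into libraries with a kit that does not mark strand; per the submitters' processing notes the tools were HISAT2 2.0.5, HTSeq 0.6.1 and DESeq2 1.20.0 on GRCh38 (hg38). No source used here gives the annotation release or the strand setting. The deposited FPKM equalled the count divided by a gene length and the library total, to within 4.71e-06 percent for values of at least 10 counts.

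Counts were fitted with edgeR 4.0.16 (R 4.3.3; TMM, default filter, robust quasi-likelihood F test, group as the only term), checked on simulated counts. SE is the absolute log2 fold change over the square root of F. Genes were called at an adjusted p under 0.05; lists of 5 or more tested genes stand beside all genes by count and median, with no set test. Alternatives were DESeq2 1.42.0, limma-voom (limma 3.58.1), other size factors and filters, limma on log2 of FPKM plus 1 or plus 0.1, the replicate number as a block, GC and length offsets (natural splines, 4 degrees of freedom each, 18538 genes) and each library left out. All 10 members are named; of each list, up to 4 called genes with the smallest p-values and a few uncalled neighbours of members. GENCODE 44 gave positions, GC content and exon overlaps, and RefSeq the start regions. The members and lists were chosen with earlier results of these data known. Some list genes are counted but not reported here by name. CPM uses library totals, and a count of 0 would allow up to 3 counts, counting error only.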

Additional observations from a re-analysis of the deposited data

How the results depend on the processing

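Calls among the 10 genes depended on single libraries, as did the number of calls over all genes. The first fit called 5 members and 7393 genes in all. Leaving out 1 library gave 1 to 6 members called in edgeR, and 5844 to 8258 genes in all. There were 1 (SPR) without Control replicate 3, 2 (SPR and PDSS2) without ENZ replicate 2 and 3 (SPR, PTS and GCH1) without ENZ replicate 3. Without ENZ replicate 1 the 6 were the 5 of the first fit and PDSS1. DESeq2 called 3 members (SPR, PDSS2 and GCH1) and 5786 genes in all. Limma on unfiltered log2(FPKM + 1) values called 2 members (PTS and GCH1), 10 of the pathway genes instead of 19, and 3728 genes in all instead of 7393. The other alternatives called 4 to 6 members. SPR was called in 17 of 18 alternatives, PDSS2 in 15, GCH1 and PTS in 13 each and QDPR in 10, with no change of direction in any of them. Values near 0 changed sign without a call. AIFM2 went to −0.0749 with GC and length offsets (−0.0734 with the replicate block added) and ranged from −0.0326 to 0.219 with a library left out. VKORC1L1 went to −0.0284 on library totals alone, to −0.0276 on log2(FPKM + 1) with or without the filter and to −0.0287 on log2(FPKM + 0.1), and ranged from −0.0217 to 0.0371 with a library left out. With the replicate number as a block the same 5 members were called and 7466 genes in all. Same-numbered libraries deviated together with r = 0.22, 0.16 and −0.19 for numbers 1, 2 and 3. Libraries of unlike number had r from −0.41 to 0.34. With 3 libraries per group these values do not show that the numbers pair the samples, and they cannot exclude it. Counts of 38 to 50 limit what can be seen for AIFM2, which fell under the 1 FPKM filter and so has no value on the filtered FPKM scales.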
